A study of Mus musculus with 87 samples.

Results

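The libraries described here are the 7 morula libraries (called morulae for short) of a mouse study of semi-cloned embryos: 4 labelled pIR and 3 labelled pWT, out of 87 libraries in all. Membership followed the labels for stage and genotype. In semi-cloning, an androgenetic haploid embryonic stem cell, whose genome comes from a sperm alone, does the work of the sperm: it is injected into the oocyte. The series title speaks of such stem cells without DNA methylation. The labels give each embryo a stage and a genotype, pIR or pWT, and state no treatment, strain, embryo age or number of embryos per library. The sources used here do not say what pIR stands for or which alleles it carries, and whether each library came from a separate embryo or pool is not stated either. Each p value therefore measures the spread between these libraries, which may be technical. The pWT columns of the count table carry another name (O48) and were matched to the pWT labels by stage and number.

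The morula is the ball of cells formed by the cleavage divisions after the embryonic genome has been switched on and before the blastocyst cavity opens. Its cells compact, polarize and begin to separate into trophectoderm, the future placenta, and inner cell mass, the future embryo. Hippo signalling sets that choice by keeping the YAP1 and WWTR1 coactivators out of the nucleus of inner cells. DNA methylation is at its lowest around this stage, apart from imprinted control regions, which keep the methylation of the parental gamete and make nearby genes active from one parental allele.

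Each morula library held 7.7 to 17 M (mega) counts on 12036 to 13167 detected genes. Levels are given in CPM, a gene's counts per M counts in its library, after TMM scaling among the morulae, a scaling that takes the bulk of genes as equal. Log2 fold changes are pIR against pWT ± SE, and a gene is called changed where its edgeR quasi-likelihood adjusted p is under 0.05. Stage markers matched the label in part: Nanog (227 to 678 CPM), Tead4 (52.98 to 91.2), Krt8 (172 to 388), Gata6 (89.5 to 235) and Cdh1 (47.7 to 86.9) were present in all 7 libraries. Pou5f1, the pluripotency factor OCT4, was low at 14.5 to 52.1 CPM, Sox2 stood at 0.49 to 8.27 and Cdx2 at 0.238 to 7.15. Markers of cumulus cells were near absent: 10 of 13 were at 0 in all 7 libraries, among them Has2, Ptx3, Amh, Fshr and Inha, and their summed level was 0.123 to 6.22 CPM in pWT and 0 to 3.25 in pIR. Fibroblast markers summed to 7.38 to 10.1 CPM in pWT and 3.65 to 8.87 in pIR, with 7 of 12 at 0 throughout, Col1a2 and Col3a1 among them.

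1 library stood apart. In pIR 1 the genes of chromosome 5 had a median log2 level of -0.88 against the other 6 morulae, a ratio of 0.543, and 414 of the 444 genes read (93.2%) lay below 0. The shortfall ran along the whole chromosome: in 6 equal stretches the median lay between -0.78 and -0.97. Over the other chromosomes and libraries, 133 values in all, medians ran from -0.30 to 0.29. Both of those extremes also belonged to pIR 1, at chromosome 12 (-0.30) and chromosome X (0.29, with pWT 2 close behind at 0.28). On chromosome 12 all 6 stretches of pIR 1 were below 0, from -0.16 to -0.44. The called genes of chromosome 5 and the median over its genes are given with and without this library.

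**Figure D1:**
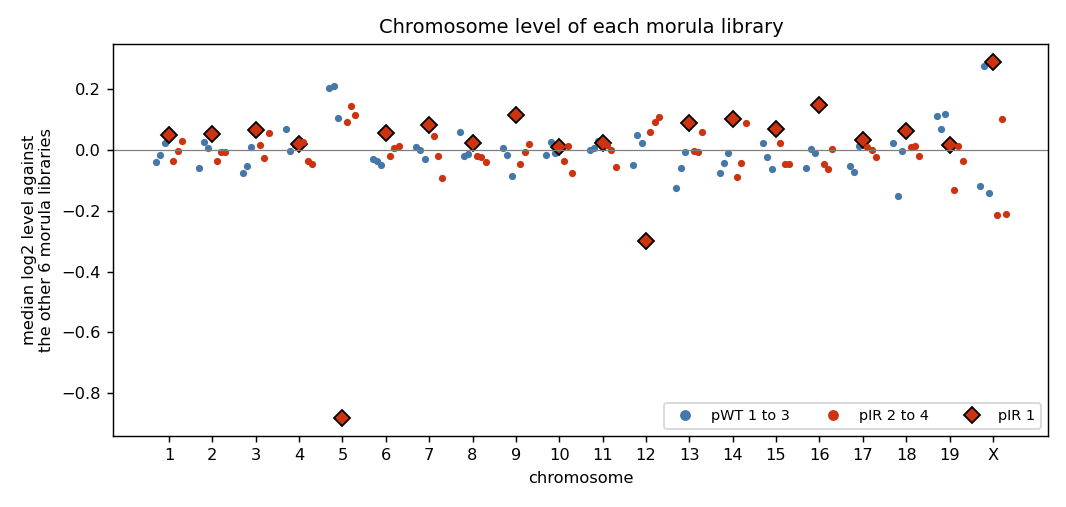
Median log2 level of the genes of each chromosome (horizontal axis) in each morula library against the mean of the other 6 (vertical axis, genes with a mean of at least 10 CPM). Circles are pWT 1 to 3 (blue) and pIR 2 to 4 (red), the diamond is pIR 1. The pIR 1 diamond lies at -0.88 on chromosome 5, which also lifts the other libraries there, since it enters the mean they are set against.

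The comparison of pIR with pWT morulae asked which genes the 2 kinds of embryo express at different levels. Of 11773 genes tested, 16 were called (0.136%): 11 fell (0.0934%) and 5 rose (0.0425%). The falls were the deeper changes among well expressed genes, 2.64-fold to 12.1-fold. By their known roles the genes that fell belong to DNA repair (Rmi2, Nsmce4a), protein folding and membrane insertion (Bag1, Get4), vesicle traffic (Tmed2), iron-sulphur clusters (Glrx5), sialic acid (Cmas), transcription (Taf10), RNA binding (Hnrnpab) and GTPase signalling (Rap1b), with Srrd less well understood. The libraries are labelled by stage and not by cell type, so fewer cells of a type and less RNA per cell cannot be told apart. The rises were Spp1, Cd63, Timd2, Tmem41b and the pseudogene Gm12551. Without adjustment, 1467 genes (12.5%) had p under 0.05, and DESeq2 called 407 of 11809 (3.45%), 224 higher (1.9%) and 183 lower (1.55%), among them all 16. The calls depended on each library: edgeR called 0 genes without pIR 4, pWT 1 or pWT 2, where 1104, 1045 and 1293 had an unadjusted p under 0.05. It called 8 genes without pIR 1, 7 without pIR 3, 6 without pWT 3 and 1 without pIR 2, of which 4, 5, 4 and 1 were among the 16. Rmi2 kept its call in 4 of the 7 fits without 1 library and Bag1 in 3. Each of the other called genes kept its call in 0 or 1 of them. The direction of each of the 16 was the same under every alternative in which it was tested.

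**Figure D2:**
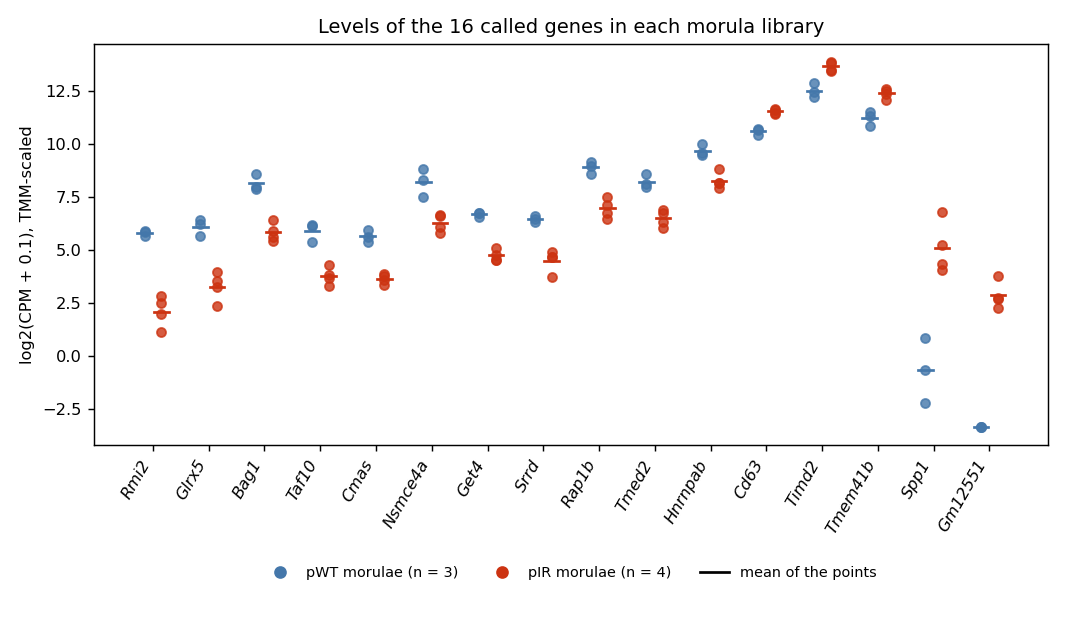
Level of each of the 16 called genes (horizontal axis, ordered by fold change) as log2(CPM + 0.1) in every morula library (vertical axis). Blue points are the 3 pWT libraries, red points the 4 pIR libraries and bars the mean of the points. In every gene the colours are separate, and Gm12551 was at 0 in all 3 pWT libraries.

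Rmi2 had the smallest p. It encodes a subunit of the BLM-TOP3A-RMI complex, which dissolves the crossed DNA strands left by recombination (chromosome 16, 10835059 to 10892966, mm10). The pWT libraries held 59.6, 57.7 and 50.3 CPM, and the pIR libraries 6.91, 2.07, 5.59 and 3.81. All 4 pIR libraries were thus far below the tight pWT group, a 12.1-fold fall (log2 -3.59 ± 0.44, edgeR adjusted p = 0.0186). The call held in 4 of the 7 fits that left out a library. The partners did not share the fall. Rmi1, the scaffold of the same complex, was higher in every pIR library (61.6 to 122 against 37.5 to 49.4 CPM) without being called (1.16 ± 0.29, edgeR adjusted p = 0.183), Blm, the helicase, stood at -0.65 ± 0.43 (0.579), and Top3a, the topoisomerase, at 0.02 ± 0.60 (0.995). Across 32 genes of this complex, homologous recombination and fork repair, 1 was called lower, 0 higher and the median was -0.02 (-0.33 without pWT 2). Of the 32, 6 had an unadjusted p under 0.05, against 12.5% of all genes, and DESeq2 called 1 higher and 1 lower. Mus81, a nuclease subunit, was lower without overlap of the groups and was not called (-1.99 ± 0.81, edgeR adjusted p = 0.34).

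Bag1 followed. It encodes a nucleotide exchange factor that releases clients from Hsp70 chaperones (chromosome 4, 40936398 to 40948294). Its levels were 234, 386 and 252 CPM in pWT and 85.4, 47.97, 59.1 and 42.6 in pIR. The highest pIR library, the one with less chromosome 5, was still below each pWT library. The fall was 4.94-fold (log2 -2.31 ± 0.28, edgeR adjusted p = 0.0186), and the call held in 3 of the 7 fits without a library. Among 25 BAG and heat shock genes it was the only one called by edgeR, with a median of 0.01. Of the 25, 7 had an unadjusted p under 0.05, against 12.5% of all genes, and DESeq2 called 2 higher and 1 lower. Bag3, the stress-inducible BAG protein, was at -0.89 ± 0.30 and Bag6, which guards tail-anchored proteins, at -1.08 ± 0.38, against 0.81 ± 0.20 for Hspa14 (edgeR adjusted p = 0.265, 0.288 and 0.183). Get4, a partner of BAG6 in the same insertion route, was called and is described next.

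Get4 (chromosome 5, 139252324 to 139270051), Tmed2 and Srrd lie on chromosome 5, as does Spp1, so 4 of the 16 called genes were there, 0.54% of the 741 chromosome 5 genes tested. Get4 stood at 107, 92.6 and 105 CPM in pWT and at 27.2, 23.2, 34.1 and 23.2 in pIR. The pIR 1 value was not the lowest of its group, and the difference was -1.92 ± 0.27 (edgeR adjusted p = 0.0312). Tmed2, a cargo receptor of vesicles between the endoplasmic reticulum and the Golgi (chromosome 5, 124540695 to 124550506), stood at 277, 249.7 and 377 CPM against 117, 64.3, 80.0 and 106. Here pIR 1 was the highest of the pIR libraries (-1.72 ± 0.25, edgeR adjusted p = 0.0378). Srrd (chromosome 5, 112337392 to 112343040), related to a plant regulator of clock genes, stood at 79.4, 88.8 and 96.0 CPM against 25.6, 13.3, 30.1 and 24.9 (-1.91 ± 0.32, edgeR adjusted p = 0.0488). Srrd overlaps Tfip11, a splicing factor on the other strand, which was at 66.7 to 95.3 CPM in pWT and 18.3 to 38.8 in pIR (-1.47 ± 0.32, 0.136). As the sources used here do not say whether counting used strand, reads of that pair cannot be told apart. Without pIR 1 the call of Tmed2 held (-1.86 ± 0.26, edgeR adjusted p = 0.032), and Get4 (-1.92 ± 0.29, 0.0554) and Srrd (-1.95 ± 0.35, 0.0955) kept their size and were not called. Over all chromosome 5 genes tested the median log2 fold change was -0.21 with pIR 1 and -0.06 without it, against 0.003 and -0.02 on the other chromosomes.

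The other 7 genes that fell had groups that did not overlap either. Rap1b, a small GTPase of adhesion and polarity (chromosome 10, 117813871 to 117846035), stood at 497, 380.5 and 557 CPM in pWT and at 181, 86.3, 139.7 and 108 in pIR (-1.89 ± 0.26, edgeR adjusted p = 0.0312). Glrx5, a mitochondrial glutaredoxin that passes on iron-sulphur clusters (chromosome 12, 105032688 to 105042906), stood at 49.5, 74.4 and 84.9 CPM against 11.4, 4.996, 15.3 and 9.36 (-2.75 ± 0.40, edgeR adjusted p = 0.0378). That is a 6.75-fold fall, the deepest after Rmi2, with pIR 2 the lowest library for both genes. Nsmce4a, a subunit of the SMC5/6 complex that guards replicating DNA (chromosome 7, 130532526 to 130573118), stood at 442, 317 and 179 CPM against 99.2, 56.0, 95.5 and 66.9. The pWT libraries of this gene were spread over a wide range, and the lowest of them was still above the highest pIR library (-1.98 ± 0.31, edgeR adjusted p = 0.0488). Cmas, which activates sialic acid, was 4.004-fold lower at 10.2 to 14.5 CPM in pIR against 41.0 to 60.8 in pWT. Taf10, a subunit of the general transcription factor TFIID and of SAGA, stood at 9.60 to 19.5 CPM against 41.9 to 72.7, and Hnrnpab, an RNA-binding protein, at 239.6 to 449 against 707 to 1029. Taf10 overlaps Ilk and Hnrnpab overlaps Phykpl on the other strand, and those partners were not called (log2 fold change 0.24 ± 0.32 and -0.41 ± 0.54, edgeR adjusted p = 0.821 and 0.822). Nsmce4a overlaps Fgfr2, which was not called either (-0.50 ± 0.39, edgeR adjusted p = 0.654). Rmi2 overlaps CT010583.1 and Spp1 overlaps Gm42793, and neither of those was among the genes counted.

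Of the 5 genes that rose, Spp1 changed most among those with reads in both groups. It encodes osteopontin, a secreted ligand of integrins (chromosome 5, 104435118 to 104441050). The pWT libraries held 0.114, 1.72 and 0.544 CPM, which is 2, 14 and 7 counts, and the pIR libraries 37.1, 112, 16.4 and 20.1. The pIR libraries varied by several fold among themselves and were all far above pWT (log2 6.01 ± 0.99, edgeR adjusted p = 0.0488). This rise lies on the chromosome that was low in pIR 1, whose value was the second highest of the group. The call was lost in each of the 7 fits without a library, that without pIR 1 included (6.0997 ± 1.05, edgeR adjusted p = 0.0879). Its integrin receptors and other matrix genes gave no further call: of 14 tested 1 rose, 0 fell and the median was -0.38 (0.05 without pWT 3, and -0.08 with a trend on transcript length taken out of each library), with Itgb5 at -0.83 ± 0.32 and Lama5 at -0.96 ± 0.44 (edgeR adjusted p = 0.325 and 0.399).

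Cd63, a tetraspanin of late endosomes and exosomes (chromosome 10, 128900989 to 128912822), stood at 1379, 1647 and 1609 CPM in pWT and at 3059, 2807, 2707 and 3157 in pIR. Both groups were tight and well apart, and the rise was 1.90-fold (log2 0.92 ± 0.15, edgeR adjusted p = 0.0488). Even so, Cd63 lost its call in each of the 7 fits without a library. Among 23 lysosomal and tetraspanin genes it was the only one called by edgeR, and the median was 0.40 (0.26 with a trend on transcript length taken out), against -0.006 over all 11773 genes. For 12 of the 23 the unadjusted p was under 0.05, against 12.5% of all genes, and DESeq2 called 4 higher and 1 lower. Without overlap of the groups, 5 were higher and 3 lower, against 6.8% and 6.29% of all genes tested. The summed level of the list was 4966 to 5764 CPM in pWT and 7654 to 9061 in pIR, and without Cd63 it was 3338 to 4155 against 4946 to 5905. Cd9, another tetraspanin, known for its part in sperm and egg fusion, stood at 970.2, 863 and 1376 CPM against 1710.2, 1972, 1856 and 2228 (0.86 ± 0.19, edgeR adjusted p = 0.154). Lamp1, the main lysosomal membrane glycoprotein, pointed the other way at 279.6 to 366 CPM in pWT and 157 to 240.4 in pIR (-0.76 ± 0.20, edgeR adjusted p = 0.189), so the list was not of one direction.

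Timd2, a membrane receptor that binds ferritin (chromosome 11, 46668960 to 46707061), was among the abundant transcripts of these embryos. It stood at 5437, 4618 and 7499 CPM in pWT and 14593, 11355, 10994 and 14303 in pIR, a 2.19-fold rise (log2 1.13 ± 0.18, edgeR adjusted p = 0.0488). Tmem41b, a lipid scramblase of the endoplasmic reticulum needed for autophagosomes (chromosome 7, 109972187 to 109986929), stood at 2505, 1808 and 2861 CPM against 5256, 6177, 4211 and 5679, a 2.23-fold rise (1.16 ± 0.19, 0.0488). For both genes the lowest pIR library was well above the highest pWT library. Gm12551, annotated as an unprocessed pseudogene (chromosome 4, 86627075 to 86631251), had 0 counts in each pWT library and 104, 55, 196 and 84 counts in pIR, or 4.74 to 13.5 CPM. Set against a floor of 3 counts over the whole pWT group, it was at least 100.5-fold higher in pIR. Counts of a pseudogene may include reads of its parent gene.

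The 250 bases before the transcription start that RefSeq gives are shown for Bag1, the fall with the second smallest p, and Cd63, the rise with the smallest, because the series concerns DNA methylation and CpG is where it occurs. Each is from RefSeq (GRCm38.p6), 5′ to 3′ on the strand of the gene, with every CG pair in capitals. Bag1 is chr4:40948295-40948544, minus strand, with 18 CG pairs, and Cd63 is chr10:128909095-128909344, plus strand, with 6. GENCODE M21 lists 6 transcripts of Cd63 with starts from 128900989 to 128910622. The printed stretch precedes the start at 128909345, 8356 bases inside the gene's outermost start, and the counts do not tell which start these embryos use.
Bag1: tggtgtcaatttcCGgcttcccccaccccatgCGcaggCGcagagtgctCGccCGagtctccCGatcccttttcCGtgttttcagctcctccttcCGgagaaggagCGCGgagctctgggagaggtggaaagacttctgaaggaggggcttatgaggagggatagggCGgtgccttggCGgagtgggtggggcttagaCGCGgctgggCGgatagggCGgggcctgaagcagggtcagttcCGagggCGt
Cd63: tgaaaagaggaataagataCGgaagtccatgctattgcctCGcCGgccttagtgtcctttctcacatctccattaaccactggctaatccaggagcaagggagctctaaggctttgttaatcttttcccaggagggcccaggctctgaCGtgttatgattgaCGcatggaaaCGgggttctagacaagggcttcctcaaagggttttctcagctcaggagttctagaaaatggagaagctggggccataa
RefSeq promoters were found for 12 of the 16 called genes (not for Rmi2, Tmed2, Srrd and Gm12551). The motif searched was CG, which reads the same on both strands. The 8 genes that fell held 9 to 36 CG pairs, with a median of 20.5, and the 4 that rose held 2 to 26, with a median of 4.5, against a median of 16 over 9319 tested genes. As many as in Bag1 were found in 43.4% of those promoters, and as many as in Cd63 in 86.0%. Timd2 (2), Spp1 (3) and Cd63 were all low, and Tmem41b (26) was not. Nsmce4a (9) and Cmas (11), which fell, also lay below the median of 16, so CG content did not sort the called genes by direction. These counts describe sequence only, and methylation was not measured in these libraries.

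Just outside the threshold were genes with groups that did not overlap and edgeR adjusted p from 0.054 upwards. On the lower side, Odc1, the first enzyme of polyamine synthesis, stood at 1555, 1149.7 and 922 CPM in pWT and at 476, 448, 669 and 462.5 in pIR (-1.23 ± 0.21, edgeR adjusted p = 0.054). Malat1, a nuclear long noncoding RNA, stood at 8777, 11451 and 6024 CPM against 1938, 2966, 2866 and 4490.4 (-1.51 ± 0.26, 0.054). Rab24, a GTPase linked to autophagy, Mrps30, a protein of the mitochondrial ribosome, and Bri3, a small lysosomal membrane protein, had log2 fold changes of -2.44 ± 0.43, -2.02 ± 0.35 and -2.48 ± 0.44. On the higher side were Hsd17b12, a fatty acid elongation enzyme (28.4, 42.5 and 46.8 CPM against 110.03, 109, 105 and 155), Pdia3, a protein disulphide isomerase, and Utp4, a ribosome assembly factor. Their log2 fold changes were 1.61 ± 0.28, 1.25 ± 0.23 and 0.90 ± 0.17 (edgeR adjusted p = 0.054, 0.0819 and 0.086). Utp4 was one of the most even of these, at 218 to 249 CPM in pWT and 417 to 443 in pIR. Over all genes tested, 1541 (13.1%) had groups that did not overlap, 801 (6.8%) higher and 740 (6.29%) lower in pIR. With library totals in place of TMM scaling the median of all genes moved to -0.15 and the split became 493 (4.19%) higher and 1072 (9.11%) lower, so these counts and the smaller shifts below are relative to that scaling.

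A few genes had no reads in pWT morulae and were present in each pIR morula. Of 25277 genes, 8 had 0 counts in all 3 pWT libraries and at least 1 CPM in every pIR library, and 0 had the reverse pattern. The reverse is the harder to meet, as it asks for 0 counts in 4 libraries of 12.3 to 17 M counts. The 3 pWT libraries held 7.7 to 16 M, so the 8 and the 0 are not on equal terms. Besides Gm12551 they were Plekhb1, Tmed3, Gm773, Gcnt2, Afap1l1, Gm6557 and 4930509G22Rik, and Gm12551 alone was called. Gcnt2, which branches the sugar chains of the I blood group antigen, stood at 7.22, 5.51, 2.00 and 7.54 CPM in pIR (edgeR adjusted p = 0.104). Gm773, on the X chromosome, was uneven, at 53.6 CPM in pIR 1 and 6.98, 6.98 and 1.67 in the other 3. Acer1, an alkaline ceramidase, was nearly of this kind, at 3.20, 0.737 and 1.32 CPM in pWT and 21.7, 57.8, 15.1 and 12.1 in pIR (3.88 ± 0.75, edgeR adjusted p = 0.092), and so was Cd81, a tetraspanin, at 0, 0 and 0.622 CPM against 15.8, 28.5, 2.83 and 2.62. Several of these genes were present in pWT embryos of the other stages. When 2C, morula and blastocyst libraries were scaled together, 5 of the 8 had a mean of at least 1 CPM in pWT blastocysts and 5 in pWT 2C embryos, and 3 and 2 had that level in every such library. On this scale Spp1 stood at 17.7, 29.1, 832 and 41.9 CPM in pWT 2C embryos, so 1 library was far above the other 3. Its mean was 0.748 ± 0.782 CPM (SD, n = 3) in pWT morulae and 380.2 ± 144 (n = 4) in pWT blastocysts. Acer1 stood at 6.74, 0, 35.9 and 7.25 CPM in pWT 2C embryos, with means of 1.66 ± 1.22 in morulae and 20.1 ± 4.96 in blastocysts.

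The blastocysts of the same 2 genotypes, 4 libraries each that took no part in the morula test, gave the same genes a second reading. Levels in this paragraph were scaled within each stage, so those of different stages are not on 1 scale. Of the 16, 15 had the same direction in blastocysts, 11 were called in that direction and 0 in the other. The background was 10.6% of 12056 genes called there, 6.74% higher and 3.9% lower. Of the 11 genes that fell in morulae 9 were called lower, and of the 5 that rose 2 were called higher, Spp1 and Cd63. Rmi2 stood at 52.7, 53.5, 53.1 and 48.1 CPM in pWT blastocysts and at 8.19, 5.87, 24.3 and 8.99 in pIR (log2 -2.13 ± 0.37, edgeR adjusted p = 0.00909). In 2C embryos Rmi2 was low in both genotypes, at 0.359 to 3.999 CPM in pWT and 2.86 to 12.996 in pIR. On these separate scales, levels near 50 CPM were seen in pWT morulae and blastocysts and in no 2C library. Bag1 stood at 229 to 589.8 CPM in pWT blastocysts and 62.7 to 109 in pIR (-2.13 ± 0.29, edgeR adjusted p = 0.00474). Spp1 was abundant in both genotypes by then, at 271 to 691 CPM in pWT and 1140.2 to 1766 in pIR, and its difference was 1.63 ± 0.25 (edgeR adjusted p = 0.00713). Tmed2 and Srrd, both on chromosome 5, were lower without being called (-0.49 ± 0.30 and -0.47 ± 0.34, edgeR adjusted p = 0.303 and 0.386). Gm12551 was at 1.94 to 5.89 CPM in pWT blastocysts and 2.15 to 4.74 in pIR, with no call (-0.26 ± 0.65, edgeR adjusted p = 0.832).

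Whether a difference changed between the stages was tested by the interaction of genotype and stage. With edgeR 0 of 13697 genes were called, 1101 (8.04%) had an unadjusted p under 0.05, and DESeq2 called 78. Gm12551 (log2 -9.93, edgeR adjusted p = 0.0551), Gcnt2 (-9.61, 0.0551), Spp1 (-4.46, 0.137) and Acer1 (-3.93, 0.164) had negative interactions that were not called. Of these genes only Spp1 kept a pIR excess in blastocysts. With the stages scaled together, the blastocyst means of Gm12551, Gcnt2 and Acer1 were slightly lower in pIR than in pWT, and the groups overlapped. The fits of Gm12551 and Gcnt2 rest on a pWT morula group at 0, so their sizes depend on the prior count. The interaction of Rmi2 was 1.5 ± 0.58 (edgeR adjusted p = 0.533) and that of Bag1 0.22 ± 0.44 (0.972).

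**Figure D3:**
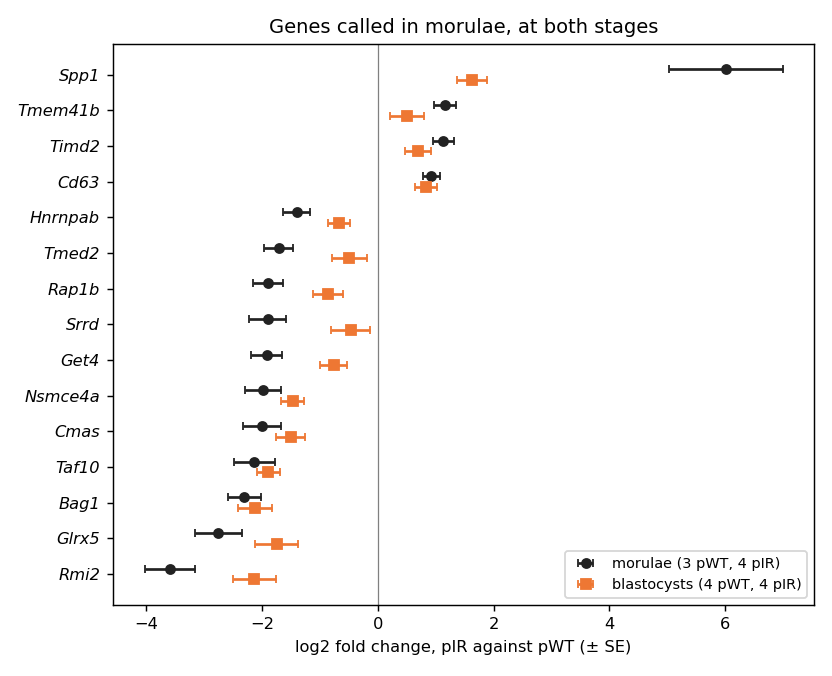
Log2 fold change of pIR against pWT (horizontal axis, ± SE) for the called genes other than Gm12551 (vertical axis) in morulae (black circles) and in blastocysts (orange squares). Each pair of symbols lies on the same side of 0, and Spp1 moves from 6.01 in morulae to 1.63 in blastocysts.

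How far each morula had come from the 2C embryo to the blastocyst was read from genes chosen in pWT 2C and blastocyst libraries only. On 2266 genes higher in blastocysts, pWT morulae had gone 80.9%, 76.6% and 79.8% of the way and pIR morulae 77.0%, 79.6%, 76.3% and 75.6%. On 2451 genes lower in blastocysts the values were 97.4%, 95.3% and 96.5% against 94.5%, 97.0%, 95.6% and 94.6%. The groups overlapped on both scales, so no difference in stage was detectable this way.

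Imprinted genes and the methylation machinery gave no call. In the clusters whose control region is methylated on the paternal allele, H19 and Dlk1 had 0 counts in all 7 libraries, and Rian, Rtl1, Dio3 and Rasgrf1 were too low to be tested. Of the 4 tested, Meg3, a noncoding RNA made from the maternal allele, stood at 20.3, 2.58 and 10.6 CPM in pWT and at 3.30, 7.32, 13.7 and 0.873 in pIR. The groups overlapped over their whole range (-0.83 ± 0.88, edgeR adjusted p = 0.765). Zdbf2 was at 0.09 ± 0.56, and Igf2 at 0.80 ± 1.92 and Mirg at -2.81 ± 1.91 were measured at a few CPM at most. Of 23 tested genes in clusters methylated on the maternal allele 0 were called by edgeR. Of these genes 5 had an unadjusted p under 0.05, against 12.5% of all genes, and DESeq2 called 1 higher and 1 lower. Among them Kcnq1ot1, the silencing RNA of its cluster, stood at 37.3, 21.98 and 18.5 CPM against 5.02, 1.89, 10.6 and 6.82 (-2.09 ± 0.57, edgeR adjusted p = 0.19), and Sgce at 0.86 to 11.9 against 13.3 to 23.4 (1.75 ± 0.73, 0.353). Of 12 genes imprinted through histone methylation 0 were called, with a median of -0.08 (0.24 without pWT 1), 1 had an unadjusted p under 0.05 and DESeq2 called 0. Xist, the RNA that silences an X chromosome, was at 215 to 348 CPM in pWT and 148 to 278 in pIR.

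Dnmt1, the maintenance methyltransferase, stood at 20.1, 21.6 and 14.0 CPM in pWT and at 7.83, 11.2, 10.3 and 9.84 in pIR (-0.92 ± 0.43, edgeR adjusted p = 0.404). Dnmt3a and Dnmt3b, the de novo enzymes, were at -0.81 ± 0.42 and -0.54 ± 0.29, and Dnmt3l, their cofactor, at 0.44 ± 0.28. Over the 14 genes of this machinery the median was -0.14, with 0 under an unadjusted p of 0.05 and 0 called by DESeq2. Germ cell genes with promoters that are methylated in somatic cells had a median of 0.28 over 23 tested, 17 of them above 0, with 0 called by edgeR or DESeq2, 1 under an unadjusted p of 0.05 and 0 without overlap. Sycp3, a protein of the meiotic chromosome axis, stood at 185, 442 and 286 CPM in pWT and 721, 447, 577 and 348 in pIR. Left-out libraries moved the germ cell median between 0.13 and 0.80, the latter without pWT 2, where Syce1 and Sycp3 were high.

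Lineage genes gave no edgeR call either. In the Hippo list 11 of 16 tested genes lay below 0, 2 had an unadjusted p under 0.05 (12.5%, the share over all genes) and DESeq2 called 2 lower. The median of -0.39 was between -0.27 and -0.89 without 1 library, the lowest without pIR 3, and -0.23 with a trend on transcript length taken out. The summed level was 443 to 508 CPM in pWT and 315 to 424 in pIR. Wwtr1 stood at 107, 121 and 92.0 CPM in pWT and at 42.4, 51.5, 53.9 and 57.5 in pIR (-1.05 ± 0.24, edgeR adjusted p = 0.161), and Yap1 at 63.7, 48.4 and 36.3 against 19.3, 4.22, 18.0 and 13.9 (-1.83 ± 0.47, 0.183). Neither coactivator had overlapping groups. Stk4, a kinase of the same pathway (38.5 to 49.9 CPM against 54.97 to 65.5), and Mob1a, a kinase adaptor (2.21 to 6.37 against 6.84 to 13.9), were higher without overlap (0.38 ± 0.26 and 0.99 ± 0.67, edgeR adjusted p = 0.591 and 0.59). Of 12 trophectoderm genes, Hand1 (29.7 to 64.8 CPM in pWT, 7.32 to 19.6 in pIR) and Gata3 (68.3 to 125 against 35.6 to 59.9) were lower without overlap, and the keratin Krt18 was higher (105 to 155 against 155 to 495). Of 21 compaction and polarity genes 6 lay above 0 and 15 below, with a median of -0.16. Among them Pard6b, a polarity protein, stood at 35.3 to 52.9 CPM against 14.9 to 21.96 (-1.29 ± 0.32, edgeR adjusted p = 0.183). Cdc42 and Cldn4 were higher with overlapping groups (0.59 ± 0.19 and 0.86 ± 0.30, edgeR adjusted p = 0.254 and 0.286). Primitive endoderm genes had a median of -0.79 over 6 tested, with Gata6 at 235, 186 and 145 CPM against 108, 102, 142 and 89.5, and genes of the epiblast leaving naive pluripotency -0.67 over 7. Of these, Tcf15 stood at 16.4, 11.8 and 11.03 CPM in pWT and at 0.979, 0.258, 2.56 and 0.317 in pIR (-3.65 ± 0.88, edgeR adjusted p = 0.173). Cldn6 of the same list, alone above 0 against 6 below, was higher without overlap. It stood at 15.6 to 40.0 CPM in pWT and 45.2 to 123 in pIR (1.40 ± 0.42, edgeR adjusted p = 0.221). The 19 naive pluripotency genes were split, 9 above 0 and 10 below, with Dppa2 and Utf1 higher (0.76 ± 0.20 and 0.85 ± 0.26) and Esrrb lower (-1.33 ± 0.43) without overlap. Unadjusted p was under 0.05 for 3 trophectoderm, 1 primitive endoderm, 3 epiblast, 6 naive pluripotency and 4 of 21 compaction and polarity genes. In that order DESeq2 called 1, 0, 1, 2 and 0 higher and 1, 0, 1, 0 and 1 lower. The shares over all genes were 12.5% for unadjusted p and 3.45% for DESeq2.

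Most tested members of the proteasome, the mitochondrial ribosome and the respiratory chain lay above 0, and those of the cytoplasmic ribosome were split. Of 38 proteasome subunits 34 lay above 0 (median 0.41), of 77 mitochondrial ribosomal proteins 67 (median 0.26), and of 73 respiratory chain subunits 54 (median 0.22), against 44 of 84 cytoplasmic ribosomal proteins (median 0.02) and 49.7% of all genes. None of these genes was called. Unadjusted p was under 0.05 for 14, 12, 14 and 3 of them in that order, against 12.5% of all genes. DESeq2 called 2, 2, 1 and 1 higher and 1 mitochondrial ribosomal protein lower, against 3.45% of all genes in both directions. Psmb7, a catalytic proteasome subunit, stood at 253, 261 and 343 CPM in pWT and at 504, 549.7, 416 and 482 in pIR (0.77 ± 0.19, edgeR adjusted p = 0.183). Summed over the proteasome, pWT 3 (22477 CPM) lay within the pIR range of 22418 to 28270 and the other 2 pWT libraries below it. The sums of the mitochondrial ribosome (11256 to 14654 CPM in pWT, 14042 to 16588 in pIR) and of the respiratory chain (19253 to 23798 against 22961 to 27929) overlapped too, and pIR 3 was the lowest pIR library in all 3. These are lists of mostly short transcripts, and levels followed length (given below): with a trend on transcript length taken out of each library the medians were 0.21, 0.23, 0.10 and -0.14. With library totals the medians were 0.26, 0.11, 0.07 and -0.13, against -0.15 for all genes. That change of scaling moves all genes about alike, so it is no separate check on the lists. Members of one machine are read in the same libraries, and their number is not a number of replicates.

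**Figure D4:**
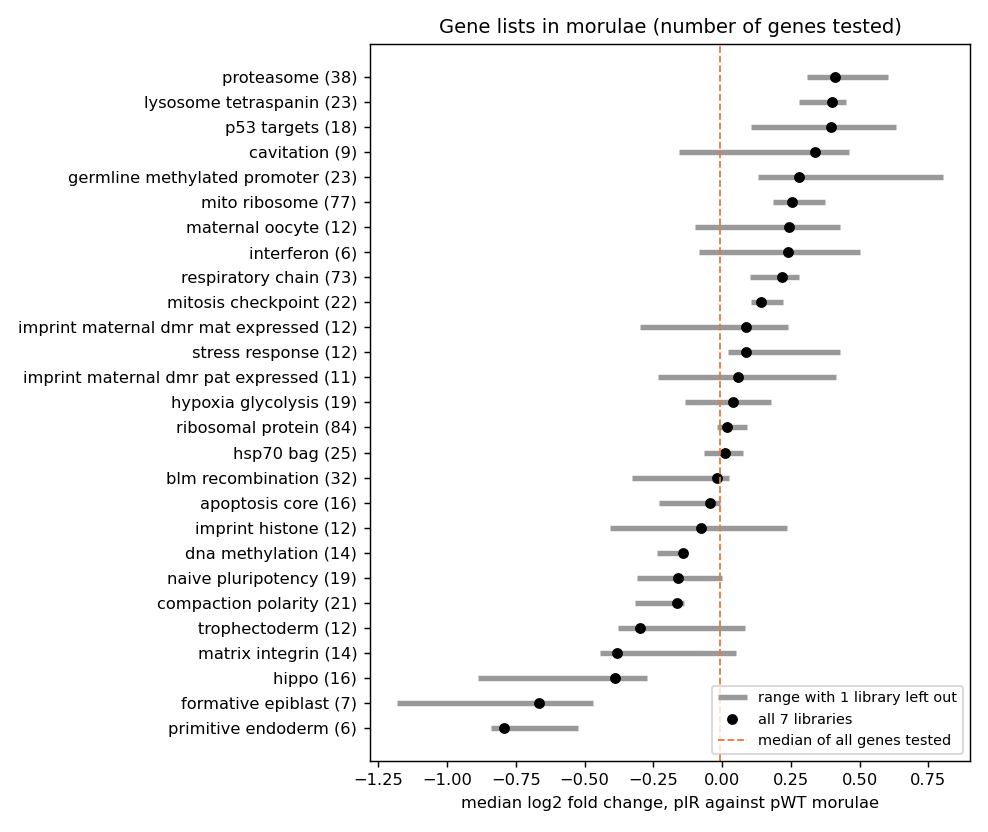
Median log2 fold change of pIR against pWT morulae (horizontal axis) for each gene list with at least 6 genes tested (vertical axis, number in brackets). Points use all 7 libraries, grey bars span the 7 fits that leave out 1 library, and the dashed line is the median of all genes. The proteasome bar runs from 0.31 to 0.60 and the ribosomal protein bar straddles 0.

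Of the remaining lists none held a gene called by edgeR. Unadjusted p was under 0.05 for 8 of 19 glycolytic and hypoxia genes, 4 of 22 mitotic, 4 of 16 apoptotic, 2 of 6 interferon, 2 of 9 cavitation, 1 of 12 stress response and 0 of 12 oocyte genes. DESeq2 called 2 glycolytic genes higher and 1 lower, 1 mitotic gene higher and 1 lower, and 1 apoptotic and 1 interferon gene lower. Over all genes the shares were 12.5% for an unadjusted p under 0.05 and 3.45% for DESeq2, and several of these counts lie near them. Caspase and BCL2 family genes had a median of -0.04 over 16 tested (-0.23 without pIR 1), with Apaf1, the scaffold of the apoptosome, at 14.4 to 15.1 CPM in pWT and 1.98 to 7.28 in pIR (-1.70 ± 0.58, edgeR adjusted p = 0.273). It was lower in each pIR library, while Cycs, cytochrome c, was higher (0.53 ± 0.19). Mitotic genes had a median of 0.14 over 22 tested, with Aurka, a spindle kinase, at 247, 294 and 233 CPM against 379, 636, 528 and 496 (0.98 ± 0.21, edgeR adjusted p = 0.136) and Incenp, a partner of Aurora B, lower at -1.51 ± 0.41 (0.191). Among glycolytic and hypoxia genes (median 0.04 over 19, and -0.14 without pWT 1), Eno1 was higher (1.12 ± 0.33) and the glucose transporter Slc2a3 lower (-1.002 ± 0.26) without overlap, which shows members of 1 list on opposite sides. Medians were 0.24 over 12 oocyte genes, 0.34 over 9 cavitation genes, 0.09 over 12 stress response genes and 0.24 over 6 interferon genes, and each depended on single libraries. Without pWT 2 those of oocyte, cavitation and interferon genes were -0.10, -0.16 and -0.08, without pIR 4 that of cavitation genes was -0.08, without pIR 3 that of interferon genes was -0.07, and without pWT 1 that of stress response genes was 0.43. Rlim, an X-linked ubiquitin ligase that promotes Xist, was even in pWT (85.1, 91.2 and 79.6 CPM) and uneven in pIR (21.8, 0.0861, 79.9 and 10.8), and the groups overlapped (-1.60 ± 0.99, edgeR adjusted p = 0.546).

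Levels also followed transcript length, to a degree that differed between libraries. The median level of long transcripts (above 4560.5 bases) minus that of short ones (below 2004.5 bases) stood at 0.53, 0.27 and 0.02 (log2) in pWT 1 to 3 and at -0.20, -0.40, 0.03 and -0.15 in pIR 1 to 4. The groups met at pWT 3 and pIR 3. Over 11524 genes the fold change had a Spearman's rho of -0.237 with length, across genes that are not independent. With that trend taken out of each library 10 of the 16 genes were called and no others, and with a trend on GC content 8 and no others.

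Targets of p53, the stress-activated tumour suppressor, had a median of 0.40 over 18 tested. With edgeR 0 were called and 3 had an unadjusted p under 0.05, against 12.5% of all genes, and DESeq2 called 2 higher. The median rested mostly on the library with less chromosome 5. It was 0.11 without pIR 1, and between 0.30 and 0.63 without any other library. Of the 18, 12 were highest of all 7 morulae in pIR 1, where they summed to 1573 CPM. The other pIR libraries held 892, 624 and 668 CPM, and pWT held 569, 1012 and 571, so the remaining pIR libraries lay within the pWT range. Phlda3, an inhibitor of AKT, stood at 38.9 CPM in pIR 1, at 9.95 to 12.1 in the other pIR libraries and at 3.42 to 4.91 in pWT. Eda2r, a death receptor on the X chromosome, stood at 115 CPM in pIR 1, 20.2 to 30.1 in the other pIR and 4.91 to 22.5 in pWT. Bbc3, also under an unadjusted p of 0.05, pointed the other way (-3.97 ± 1.57, edgeR adjusted p = 0.329). It was near the floor, at 1.31, 1.23 and 3.42 CPM in pWT and 0.306, 0.0861, 0.0691 and 0 in pIR. Cdkn1a, which arrests the cell cycle, did not set pIR 1 apart: it stood at 359.8 CPM there and at 381 in pWT 2. The part of the chromosome 5 shortfall in these levels was not tested.

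**Figure D5:**
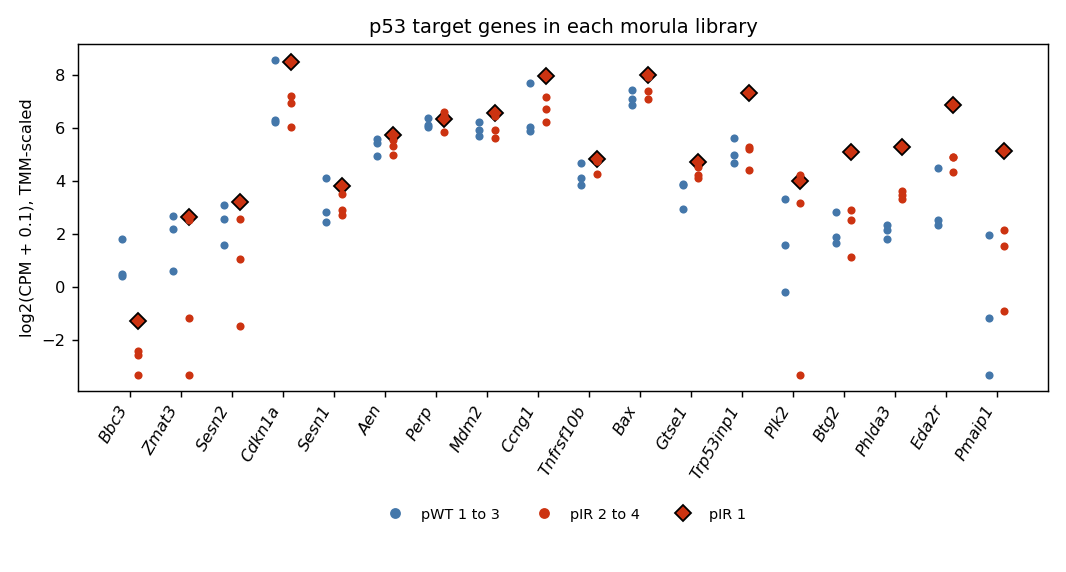
Level of each tested p53 target (horizontal axis, ordered by fold change) as log2(CPM + 0.1) in every morula library (vertical axis). Blue circles are pWT 1 to 3, red circles pIR 2 to 4 and diamonds pIR 1. The diamond is the top symbol in 12 of the 18 genes, among them Phlda3 at 38.9 CPM and Eda2r at 115 CPM.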

How the data were processed

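Polyadenylated RNA of 7 morula libraries was compared, with 8 blastocyst and 8 2C libraries of the same genotypes read beside them. The submitters' processing notes name Trim Galore 0.6.6, HISAT2 2.1.0, featureCounts 1.6.4 and the build mm10. The protocol in the labels describes a poly(A) kit and a Smart-Seq2 kit, without saying which served which library. The deposited values are whole-number counts per gene, per the file headers, not normalized.

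TMM scaling, filterByExpr (minimum count 10) and glmQLFTest came from edgeR 4.0.16 under R 4.3.3, with Benjamini-Hochberg adjustment over all genes and a threshold of 0.05. The procedure was tested on simulated counts. Chromosome levels used log2(CPM + 0.5) of genes with a mean of at least 10 CPM. Positions came from GENCODE M21, which held 24433 of 25277 genes (96.7%). Alternatives were the Wald test of DESeq2 1.42.0, voom of limma 3.58.1, median-of-ratios scaling, no filter, a replicate block, blastocysts in the same fit, chromosome 5 left out, trends on length or GC content in 25 bins, and each library left out. Replicates of one group differed by more than counting noise (chi-square per degree of freedom 50.4 to 99.1).

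The members and the 32 gene lists were chosen with earlier results of these data known. Named genes are all called genes, up to 5 uncalled genes per direction with the smallest p, a mean of at least 5 CPM and no overlap, called or else up to 3 leading members of each list, imprinted genes of the paternal clusters, DNA methyltransferases, subunits of the BLM complex and stage markers, apart from items that are not reported here. Bag3, Bag6, Hspa14, Mus81, Itgb5, Lama5, Cd9, Lamp1 and Cdkn1a, the genes at 0 in pWT, the p53 libraries and the list medians without each library, on library totals or without the length trend were chosen after their values were seen.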

Additional observations from a re-analysis of the deposited data

Results flagged for a closer look

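In the 4 pIR morulae, 8 values stood so far from the other 3 that the gap filled most of the range (above the 95% critical value of Dixon's test for 4 samples), out of 131 groups of 4 read. Chance flags about 1 in 20 groups. Chromosome 5 in pIR 1 stood at -0.88 on the log2 scale against 0.09 to 0.15 in the other pIR libraries, and chromosome 12 in pIR 1 at -0.30 against 0.06 to 0.11. Phlda3 was high in pIR 1 (38.9 CPM against 9.95 to 12.1) and Gdf9, an oocyte growth factor, low there (1.77 CPM against 4.49 to 5.31). Odc1 was high in pIR 3 (669 CPM against 448 to 476) and Atp5c1, a subunit of the ATP synthase, low (495 CPM against 665 to 678). Hsd17b12 was high in pIR 4 (155 CPM against 105 to 110.03) and Nanog low (433 CPM against 559 to 586).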

How the results depend on the processing

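Against 16 genes called in morulae, DESeq2 called 407, limma voom with sample weights 27, no filter on low counts 58 and blastocysts in the same fit 218. A GC content trend taken out left 8, a length trend 10 and chromosome 5 left out 4. Leaving out 1 library gave 0 to 8 calls, 0 to 5 of them among the 16. The replicate numbers did not pair the samples (correlations of deviations 0.02, -0.16 and -0.26), and with the number as a replicate block 1 gene was called in morulae, 1 in the interaction and 1375 in blastocysts. The interaction, with 0 calls, had 78 with DESeq2, 1 with median-of-ratios scaling, 3 without the filter and 0 to 9 with 1 library left out, the most without pWT 3. The 1282 blastocyst calls became 2275 with DESeq2 and 229 to 1520 with 1 library left out, the fewest without pWT 2. Chromosome 5 in pIR 1 was -0.85 with a minimum of 50 CPM. The cause of these changes was not tested, except that fewer genes or libraries enter where some are left out. Over these alternatives, readings of the called genes kept the call 114 times, lost it 138 times and reversed 0 times, and none of the uncalled named genes reversed. Median-of-ratios scaling kept all 16 calls.

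With 3 and 4 libraries, the smallest called change was 1.90-fold (Cd63). Larger ones were often not called, such as Yap1 and Hand1 (log2 -1.83 and -1.76), whose groups did not overlap. Genes at a few CPM were read with wide errors. The assignment of the O48 columns to pWT rests on stage and number.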
